A study of Homo sapiens with 4 samples.

Results

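The genes described here are long intergenic non-coding RNA genes, those whose symbol is LINC followed by digits, in LNCaP cells treated with androgen with or without CPI-455. Members were chosen by their symbol and by a sum of at least 40 counts over the 4 libraries. Of 2214 LINC genes annotated among 60675 genes, 206 met this minimum, 810 had 1 to 39 counts and 1198 had none. The 206 members carry 205 symbols, since LINC01605 stands for 2 gene identifiers. LNCaP is an androgen-responsive human prostate cancer cell line from a lymph node metastasis. All cells received 1 nM R1881, a synthetic androgen, for 72 h in medium with hormone-depleted serum. The vehicle group (2 cultures) received DMSO, for which the labels and the methods give different percentages, and the CPI-455 group (2 cultures) received 50 µM CPI-455 in DMSO. There was no group without R1881, so each difference is that of adding the inhibitor to androgen. The cultures were described as biological replicates of a single cell line, and p-values measure the spread between these samples.

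CPI-455 inhibits the KDM5 family of histone demethylases, which remove methyl groups from lysine 4 of histone H3, a mark of active promoters. LINC genes are transcribed by RNA polymerase II and usually capped, spliced and polyadenylated, but the transcripts have no long conserved reading frame. Many are kept at low levels in the nucleus and degraded quickly by the nuclear exosome, and some are known to act on chromatin, on splicing or as binding partners of microRNAs. The prefix is a name for genes that did not overlap a coding gene when they were named. In the annotation of the files, 106 of the 206 members overlapped the body of another gene, 89 of them on the opposite strand and 19 with a protein-coding gene, so the word intergenic did not hold for all. GENCODE release 44 typed 195 members as lncRNA genes and the other 11 as transcribed pseudogenes. Chromosome 1 held 32 members, chromosome 7 held 17, chromosome 2 held 14 and chromosome 12 held 12.

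The vehicle libraries held 19623553 and 20690819 counted fragments and the CPI-455 libraries 9522920 and 5401588, so a single count stood for 0.0457 to 0.0472 CPM (counts scaled by edgeR to library size) with vehicle, against 0.112 to 0.198 CPM with CPI-455. The vehicle libraries gave 73% of all counts, so the minimum of 40 counts was met more easily by genes present with vehicle. All 9 luminal prostate markers checked were above 0 in every library, and their levels summed to 880 and 955 CPM in the vehicle libraries and to 383 and 437 CPM in the CPI-455 libraries. Of the 9, 6 were called lower, KLK3, FOLH1, KRT8 and HOXB13 among them. KLK2 was not called and lay higher with CPI-455, at a log2 fold change of 0.56 (edgeR FDR 0.00833), and TMPRSS2 (-0.66) and KRT18 (-0.43) were not called. The basal, immune and endothelial lists each summed to at most 1.55 CPM in any library. The neuroendocrine list summed to 25.6 and 29.0 CPM with vehicle against 29.7 and 45.3 CPM with CPI-455, with CHGA called lower, and the stromal list to 16.3 to 21.5 CPM, with COL1A1 called higher. The part of these lists in the results was not tested. In these bulk samples, fewer cells of a kind and less RNA per cell cannot be told apart. The RNA composition also differed between the groups. MALAT1, an abundant nuclear lncRNA, took 0.0884% to 0.114% of counts with vehicle and 4.95% to 6.49% with CPI-455, and its part in the results below was not tested.

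RefSeq promoter windows (GRCh38.p14, 250 bases before to 50 bases after the start, on the gene's strand) were found for 138 of the 205 symbols, and 112 of them started within 500 bases of the gene start in the files. The windows of 2 members that rose and 2 that fell are shown because they had at least 500 counts, the largest changes in each direction among such members, and a RefSeq start within 100 bases. They were chosen after the values were seen. LINC00632 (chrX:140709509-140709808, plus strand) and LINC00265 (chr7:39733318-39733617, plus strand) were called higher with CPI-455, and LINC00641 (chr14:21206851-21207150, minus strand) and LINC01547 (chr21:44939864-44940163, minus strand) were called lower. Capitals mark the GC box (GGGCGG, bound by SP1-type factors) and the CCAAT box (CCAAT), each on either strand.
LINC00632: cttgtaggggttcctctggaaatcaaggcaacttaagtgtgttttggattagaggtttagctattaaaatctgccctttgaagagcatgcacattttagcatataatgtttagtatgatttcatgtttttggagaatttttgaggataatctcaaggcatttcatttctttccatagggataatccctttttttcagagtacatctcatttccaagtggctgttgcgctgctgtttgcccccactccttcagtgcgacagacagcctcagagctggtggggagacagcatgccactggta
LINC00265: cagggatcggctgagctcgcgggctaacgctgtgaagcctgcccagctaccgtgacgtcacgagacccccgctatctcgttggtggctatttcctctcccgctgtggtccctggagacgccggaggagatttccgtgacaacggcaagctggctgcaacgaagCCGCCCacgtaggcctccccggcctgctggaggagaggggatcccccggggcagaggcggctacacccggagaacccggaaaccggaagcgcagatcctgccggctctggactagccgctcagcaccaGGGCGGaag
LINC00641: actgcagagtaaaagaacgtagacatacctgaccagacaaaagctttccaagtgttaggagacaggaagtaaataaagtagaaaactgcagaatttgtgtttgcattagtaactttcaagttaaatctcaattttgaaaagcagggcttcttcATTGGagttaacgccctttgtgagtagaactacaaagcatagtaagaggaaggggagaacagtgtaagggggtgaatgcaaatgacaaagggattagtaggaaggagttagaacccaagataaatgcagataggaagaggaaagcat
LINC01547: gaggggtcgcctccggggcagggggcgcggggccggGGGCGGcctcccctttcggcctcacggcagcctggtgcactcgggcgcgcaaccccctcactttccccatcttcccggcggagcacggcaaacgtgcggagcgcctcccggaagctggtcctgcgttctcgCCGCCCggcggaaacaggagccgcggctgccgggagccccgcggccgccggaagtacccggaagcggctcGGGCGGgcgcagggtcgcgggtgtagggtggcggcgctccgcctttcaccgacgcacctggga

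The 4 windows differ widely in composition. The window of LINC01547 was 76.3% GC with 42 CpG dinucleotides and 3 GC boxes, and that of LINC00265 was 66.7% GC with 27 CpG dinucleotides and 2 GC boxes. The windows of LINC00632 and LINC00641 were 42% and 39% GC with 2 CpG dinucleotides each, and LINC00641 held a single CCAAT box. Across the 112 windows, 54.5% held a GC box, 46.4% a CCAAT box and 13.4% a TATA box (TATAAA), against 44.9%, 34.6% and 11.6% of 34943 promoters in the RefSeq table. Unlike the 112 windows, those promoters were not limited by counts or by distance to a gene start, so the sets are unlike. Among windows of members called higher, 16 of 28 held a GC box and 12 held a CCAAT box. Among those of members called lower, 6 of 16 held a GC box and 11 held a CCAAT box. The median window had 19 CpG dinucleotides for members called higher, 4.5 for those called lower and 17.5 for those not called. The full palindromic androgen response element and the heat shock element were in none of the members' windows, and in 0.00286% and 0.489% of all promoters. None of these motifs contains another, and the shares were not tested.

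The comparison asked how LINC transcripts changed when the KDM5 inhibitor was added to androgen. More members were higher than lower with CPI-455. Of the 203 members tested, 56 (27.6%) were called higher and 25 (12.3%) lower, and 122 were not called, a call requiring an FDR under 0.05 by the quasi-likelihood test of edgeR together with a 2-fold change or more. Over all 17600 genes tested, 21% were called higher and 21.3% lower. Over the 16794 tested genes that also had at least 40 counts, 19.5% were called higher and 22.1% lower. The median log2 fold change of CPI-455 over vehicle was 0.42 for the members, with quartiles of -0.56 and 1.52, against -0.09 for the genes with at least 40 counts. It was 1.99 among members called higher and -2.65 among those called lower. Of the members not called, 10 had an FDR below 0.05 with a change of less than 2-fold. Members took 0.115% and 0.114% of counts in the vehicle libraries and 0.164% and 0.161% in the CPI-455 libraries. The share of the members in all counts was therefore higher in both CPI-455 libraries.

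**Figure D1:**
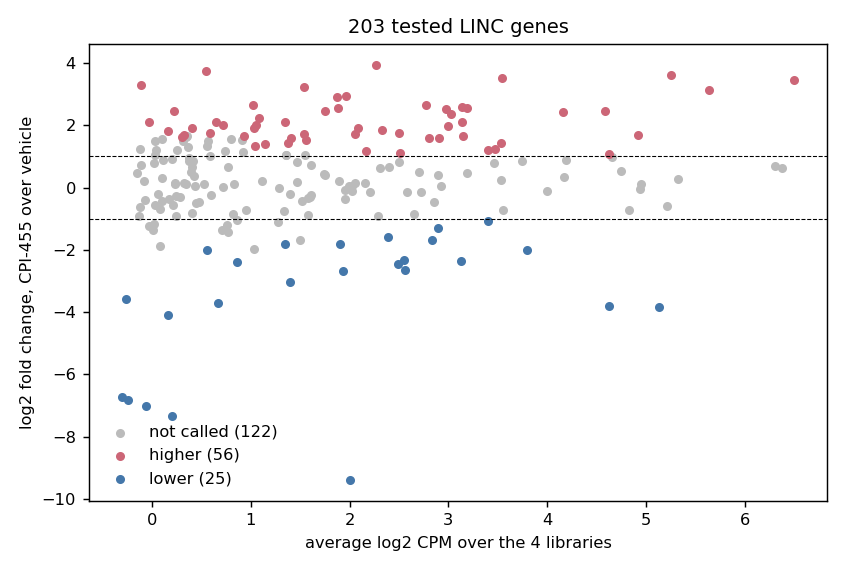
Log2 fold change of CPI-455 over vehicle (vertical axis) against average log2 CPM over the 4 libraries (horizontal axis) for 203 tested LINC genes, each point a gene, with dashed lines at a 2-fold change. The 56 red points (called higher) lie along the whole range of levels, while the 25 blue points (called lower) include 5 genes below -6 that had no count in either CPI-455 library.

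For most tested members the normalized levels of the groups did not overlap. Both CPI-455 libraries lay above both vehicle libraries for 98 (48.3%), against 37.7% of the tested genes with at least 40 counts, and both lay below for 46 (22.7%), against 44.3%. The other 59 members overlapped. At the lower end, 10 and 15 members had no count in the CPI-455 libraries, which were less deeply sequenced, and none were at 0 with vehicle. The part of depth in these zeros was not tested. At least 10 counts were reached by 201 and 202 members with vehicle and by 159 and 131 with CPI-455. The 10 most abundant members held 39% to 43.2% of member counts in a library.

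**Figure D2:**
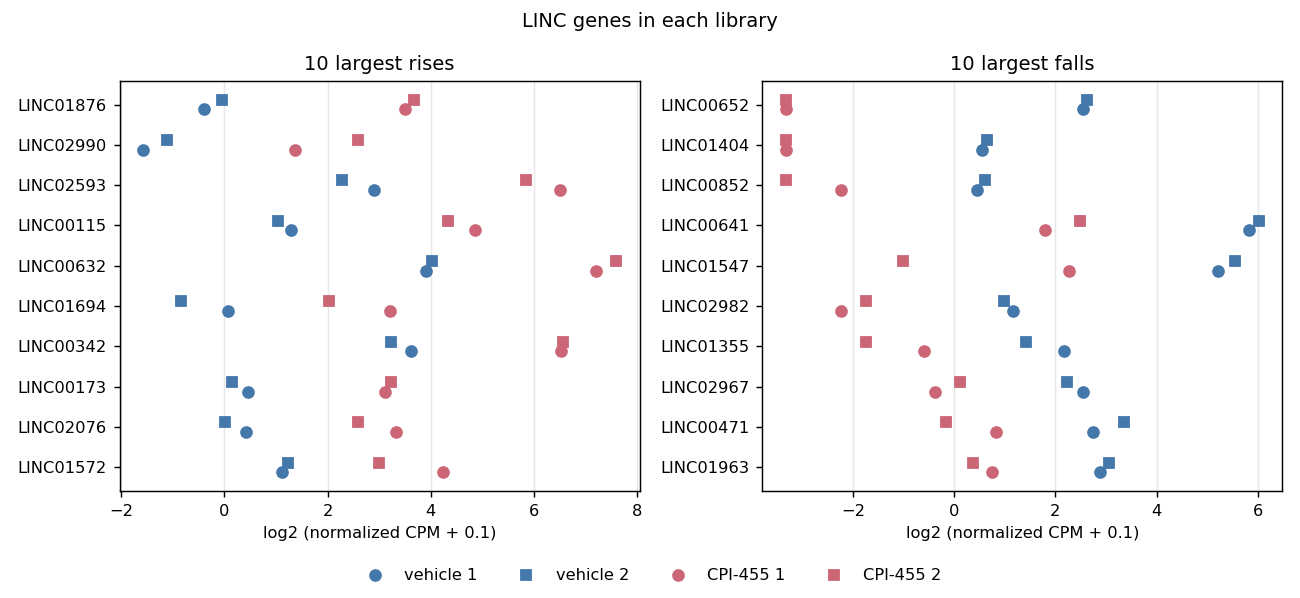
Normalized level of the 20 called members with the largest changes among those with an average log2 CPM of at least 0, as log2 of CPM plus 0.1 (horizontal axis), with 1 row per gene, blue for vehicle, red for CPI-455, circles for replicate 1 and squares for replicate 2. In both panels the red and blue symbols of every gene are apart, and the red symbols of LINC01547 are the farthest from each other, at 42 and 2 counts before normalization.

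LINC00632 was the member with the highest level per length, and it rose. It spans chrX:140709767-140772679 on the plus strand, and its locus is known as the source of the circular RNA CDR1as, which binds a microRNA in neurons and other cells. It had 317 and 352 counts with vehicle against 1318 and 972 with CPI-455. That is 15.5 ± 0.783 CPM against 170 ± 31.4 CPM (SD, n = 2 in each group here and below). Both CPI-455 libraries were well above both vehicle libraries, although they were less deeply sequenced. The log2 fold change was 3.45 ± 0.16 (SE, edgeR FDR 7.07e-07), or 10.9-fold. Whether the counted exons include the sequence of the circle was not examined, so the values stand for the annotated exons of LINC00632 only. The promoter window printed above for this gene held none of the motifs searched.

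LINC00342, on chromosome 2, rose from 257 and 204 counts to 818 and 477. Its level was 10.7 ± 1.99 CPM with vehicle and 93.1 ± 1.83 CPM with CPI-455, a log2 fold change of 3.12 ± 0.17 (edgeR FDR 1.06e-06). The gene has been studied in lung cancer, and its CPI-455 replicates were close together. LINC02593 lies on chromosome 1 3864 bases from SAMD11, a gene for a sterile alpha motif protein, and had 155 and 104 counts with vehicle against 808 and 289 with CPI-455. It changed from 6.04 ± 1.82 to 73.9 ± 23.7 CPM (log2 fold change 3.63 ± 0.27, edgeR FDR 5.3e-06). With CPI-455 these genes were thus 8.67-fold and 12.4-fold higher.

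LINC01876 had the largest rise among members with an average log2 CPM of at least 0. It had 14 and 19 counts with vehicle against 100 and 64 with CPI-455, and the log2 fold change was 3.94 ± 0.39 (edgeR FDR 2.29e-05). The counts with CPI-455 were higher even before the difference in depth was taken into account. LINC02990 followed with 5 and 8 counts against 22 and 30, at 3.73 ± 0.73 (FDR 0.00168). LINC00173, near MAP1LC3B2, had 27 and 22 counts against 76 and 47 (2.95 ± 0.40, FDR 0.00017). LINC02076, LINC01572 and LINC01694 completed the largest rises, and LINC02990 had the largest SE of the genes in this paragraph. LINC02076 had 26 and 20 counts with vehicle against 88 and 30 with CPI-455 (2.90 ± 0.45, FDR 0.000426). LINC01572 had 44 and 49 counts against 168 and 40 (2.66 ± 0.42, FDR 0.000463), and 1.85 without CPI-455 replicate 1. LINC01694 had 20 and 10 counts against 81 and 20 (3.24 ± 0.59, FDR 0.00108), and its value was 2.47 without CPI-455 replicate 1. With thinned libraries LINC01694 was at 4.31. The value of LINC02990 was 2.96 without CPI-455 replicate 2 and 2.30 with a length and GC trend removed.

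Among the members called lower, LINC00641 had the most counts. It lies at chr14:21200079-21206900 on the minus strand, starting 2236 bases past the end of HNRNPC, which encodes a nuclear RNA-binding protein, on the same strand. It had 1192 and 1418 counts with vehicle against 30 and 28 with CPI-455, and fell from 60.5 ± 5.99 to 4.45 ± 1.54 CPM. The log2 fold change was -3.84 ± 0.24 (edgeR FDR 1.97e-06), or 14.3-fold lower. HNRNPC itself had a log2 fold change of -0.07 ± 0.12 and was not called. The separation between the groups was far larger than the spread of the replicates for LINC00641, and its promoter window was the poorest in GC of the 4 shown above.

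LINC01547, at chr21:44932814-44939913 on the minus strand, fell from 787 and 1028 counts to 42 and 2. Its level was 42.1 ± 6.92 CPM with vehicle and 2.55 ± 3.05 CPM with CPI-455, a log2 fold change of -3.80 ± 0.46 (edgeR FDR 8.97e-05). The CPI-455 replicates were far apart, at 4.71 and 0.396 CPM, although both were far below vehicle. The log2 fold change was -6.72 without CPI-455 replicate 1 and -3.20 without CPI-455 replicate 2.

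For 5 of the members called lower no fragment was counted with CPI-455 in either library, so the fitted fold changes are not bounds. Against a floor of 3 counts over the CPI-455 group, LINC00652 (122 and 132 counts with vehicle) was at least 27.5-fold lower. LINC00652 is on chromosome 20 and overlapped no coding gene. LINC01404, which lies on the opposite strand of the muscle-expressed LINC01405, had 29 and 32 counts with vehicle and was at least 6.60-fold lower. LINC02916, LINC00526 and LINC02816 had 40 to 49 counts with vehicle in all and were at least 5.30-, 4.54- and 4.32-fold lower. With these genes at their bounds, the median log2 fold change of members called lower was -2.39. LINC00852, LINC02982 and LINC01686 were near 0 with CPI-455. LINC00852 had 27 and 31 counts against 1 and 0, a ratio of 18.8 with an exact 95% interval of 3.25 to 756. LINC02982 had 45 and 41 counts against 1 and 1, a ratio of 13.9 (3.75 to 117). LINC01686 had 24 and 16 counts against 1 and 0, a ratio of 13.0 (2.20 to 525). These intervals and bounds cover counting error only, and they span a wide range of sizes. LINC00852 shares exon bases with the ghrelin gene GHRL on the opposite strand, so its count excludes fragments in the shared part. Without either vehicle replicate 1 or vehicle replicate 2, LINC01404 (fitted values of -7.15 and -7.03), LINC00852 (-4.21 and -4.06) and LINC02982 (-3.60 and -3.78) were no longer called.

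The other large falls were in genes with more counts. LINC01355 had 93 and 56 counts with vehicle against 5 and 1 with CPI-455 (-3.02 ± 0.68, edgeR FDR 0.00368), and -4.10 without CPI-455 replicate 1. Its call was lost without vehicle replicate 1 (-2.66). LINC02967 had 122 and 100 counts against 6 and 5 (-2.68 ± 0.49, FDR 0.00119). LINC00471 had 140 and 221 counts against 15 and 4 (-2.65 ± 0.45, FDR 0.000762), and -3.41 without CPI-455 replicate 1. LINC00471 begins 8821 bases past the end of NMUR1, a neuropeptide receptor gene. LINC01963 had 155 and 181 counts against 14 and 6 (-2.45 ± 0.39, FDR 0.000449). In each of these genes both CPI-455 libraries were below both vehicle libraries.

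Per kilobase of exon, the 5 members with the highest mean level were LINC00632, LINC00342, LINC01605, LINC02381 and LINC00205. LINC00632 stood at 5.16 CPM per kb with vehicle and 56.5 with CPI-455, and LINC00342 at 4.10 and 35.5. LINC01605 has 2 identifiers, a long gene of 1522 exon bases and a gene of 510 exon bases that lies within it on the same strand. The short gene had 6.01 ± 0.244 CPM per kb with vehicle against 30.5 ± 4.17 with CPI-455 and was called higher (log2 fold change 2.35 ± 0.28, edgeR FDR 7.79e-05), a value that was 1.04 with the length and GC trend removed. The long gene had 4.30 ± 0.33 and 5.79 ± 1.73 CPM per kb and was not called (0.40 ± 0.31, FDR 0.284). The 2 genes with this symbol thus had different calls, and the difference between them was not tested. LINC02381, which lies in the body of the DNA repair gene SMUG1 on the opposite strand, had 15.7 ± 1.05 CPM per kb with vehicle and 18.9 ± 1.60 with CPI-455 and was not called (0.26 ± 0.15, FDR 0.161). LINC00205, on chromosome 21, had 9.48 ± 0.248 and 17.5 ± 1.82 CPM per kb and missed the 2-fold minimum (0.89 ± 0.19, FDR 0.00319). With vehicle the order was LINC01547 at 15.8, LINC02381 at 15.7 and LINC00641 at 10.6 CPM per kb, where the first 2 lay within their spread. With CPI-455, LINC00632 and LINC00342 led.

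A list of 11 LINC genes studied in prostate cancer or androgen work was written from general knowledge. The files held 9 of the 11 symbols and 5 were members, of which none was called higher and LINC00665 was called lower. LINC00963, first described in the progression of prostate cancer to androgen independence, had the most counts of any member, with 1327 and 1503 counts with vehicle against 979 and 458 with CPI-455. It went from 65.7 ± 4.23 to 100 ± 13.6 CPM, a log2 fold change of 0.62 ± 0.14 that was under 2-fold (edgeR FDR 0.00354). LINC00665, past the end of the zinc finger gene ZFP14, had 192 and 156 counts with vehicle against 6 and 15 with CPI-455. It was called lower at -2.33 ± 0.54 on the log2 scale (edgeR FDR 0.00432), with values of -1.46 without CPI-455 replicate 1 and -3.62 without CPI-455 replicate 2. LINC00662 had 387 and 360 counts against 288 and 188 and lay at the edge of the 2-fold minimum (0.99 ± 0.18, FDR 0.000933). Its value was 1.05 without vehicle replicate 1 and 1.08 without CPI-455 replicate 1. Over 12 alternative settings LINC00662 ranged from 0.80 to 1.53, and it was called higher in 6 of them. LINC01138 (0.82 ± 0.44, FDR 0.132) and LINC01116 (-1.19 ± 0.85, FDR 0.249) were not called, and the CPI-455 replicates of both were far apart for their level. LINC01138 was at 10.5 and 3.76 CPM in the CPI-455 libraries, so 1 library was near the 3.97 and 4.48 CPM of vehicle. LINC01138 was -0.19 and LINC01116 was -0.41 without CPI-455 replicate 1, and they were 1.27 and -2.22 without CPI-455 replicate 2, where LINC01138 was called higher. LINC00844, a gene known to respond to androgen in prostate cells, had 2 counts in all and was no member.

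Of 16 LINC genes studied in other cancers, 13 were in the files and 6 were members. LINC00342 was called higher, and LINC00641 and LINC01128 were called lower. LINC01234 had 717 and 763 counts with vehicle against 213 and 85 with CPI-455, a log2 fold change of -0.73 ± 0.19 that was under 2-fold (edgeR FDR 0.00898) and called at -1.05 without CPI-455 replicate 1. LINC00467 had 457 and 501 counts against 250 and 185 (0.53 ± 0.18, FDR 0.0316). LINC00857 had 75 and 67 counts with vehicle, and the CPI-455 libraries had 28 and 0. It was not called (-0.87 ± 0.80, FDR 0.37), and the value was -8.73 without CPI-455 replicate 1 and -0.11 without CPI-455 replicate 2. The CPI-455 libraries thus gave opposite pictures of LINC00857, with replicate 1 at the level of vehicle.

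By position, the members were split into 6 categories, each member counted once. The 106 members in none of the other categories gave 32 called higher and 11 lower (median log2 fold change 0.64). The 61 tested members whose exons share bases with another gene gave 15 higher and 6 lower, with a median of 0.16. The 19 tested members that start within 10000 bases past the end of a protein-coding gene on the same strand gave 2 higher and 6 lower, with a median of -0.70. This was the only category of the 6 with more members lower than higher. The members lower in it were LINC00641, LINC00471, LINC00665, LINC01535, LINC02977 and LINC02035, and the members higher were LINC01551 and LINC00960. Those that start within 1000 bases of a protein-coding start on the opposite strand numbered 10, with 3 higher, 1 lower and a median of 1.05. Over the 16794 tested genes with at least 40 counts, lower calls also outnumbered higher calls, at 22.1% against 19.5%. The differences between the categories were not tested.

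**Figure D3:**
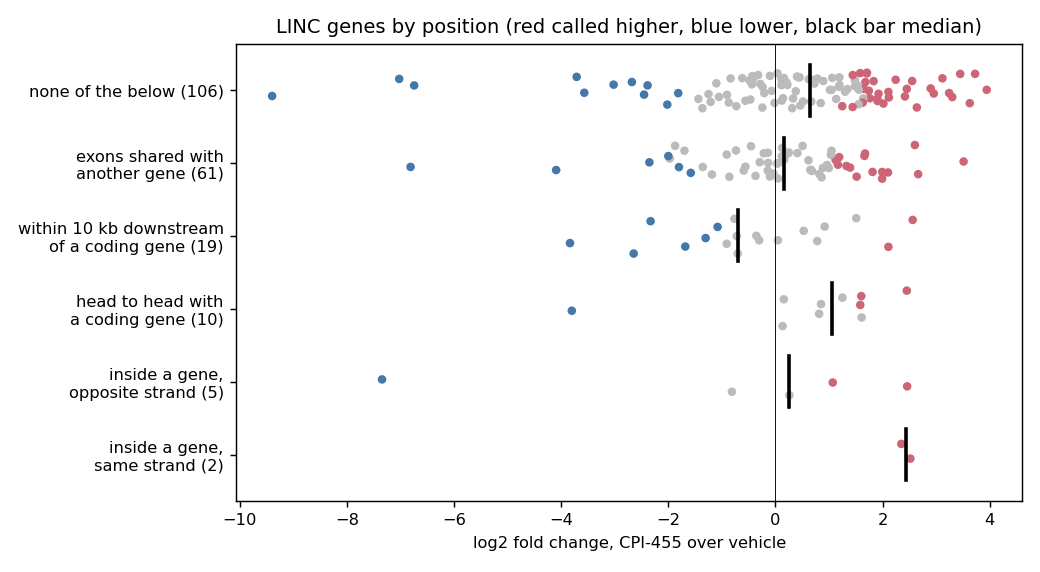
Log2 fold change of CPI-455 over vehicle (horizontal axis) for the tested LINC genes in each category of position (rows, with the number of genes), each point a gene, red called higher, blue called lower and grey not called, with a black bar at the median. The median of the 19 genes past the end of a coding gene is -0.70 and that of the 106 genes in no other category is 0.64.

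Counting 4 more whose exons also share bases, 14 members were head to head with a coding gene, and 4 were called higher and 1 lower. LINC01547 and its partner SLX9, a ribosome biogenesis gene whose nearest base is 97 bases away, are the pair whose LINC gene had the most counts. SLX9 went from 61.2 ± 0.0331 to 45.9 ± 6.16 CPM, a log2 fold change of -0.41 ± 0.14 that was under 2-fold, while LINC01547 fell by 3.80. LINC01521 (89 and 81 counts with vehicle, 84 and 74 with CPI-455) was called higher at 1.58 ± 0.32 (edgeR FDR 0.00217). Its partner PATZ1, a zinc finger transcription factor gene, was called lower at -1.48 ± 0.13 (FDR 1.13e-05). LINC01560 (26 and 31 counts against 52 and 45) was called higher at 2.45 ± 0.44 (FDR 0.00101), and its partner ZNF41, another zinc finger gene, was called lower at -1.48 ± 0.36 (FDR 0.00556). In both of these pairs the LINC gene and the coding gene were called in opposite directions. LINC00649 (332 and 373 counts against 118 and 89) was not called at -0.10 ± 0.22 (FDR 0.707), and its partner ATP5PO, an ATP synthase subunit gene, was called higher at 1.19 ± 0.12. LINC01089 (170 and 149 counts against 21 and 32) was not called at -0.86 ± 0.43 (FDR 0.112), and its partner SETD1B, a methyltransferase of the histone position that KDM5 enzymes demethylate, was called lower at -1.32 ± 0.18. LINC01089 was -0.25 without CPI-455 replicate 1 and -1.69, a call, without CPI-455 replicate 2.

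Neighbouring members did not always move together. Within 100 kb of each other lay 14 pairs of members, and in 4 pairs both genes were called, 2 in the same direction and 2 in opposite directions. LINC01128, LINC00115 and LINC02593 lie near the start of chromosome 1. LINC01128 (chr1:825138-859446, plus strand) had 446 and 415 counts with vehicle against 50 and 21 with CPI-455 and was called lower at -2.00 ± 0.26 (edgeR FDR 0.00012). LINC00115 (chr1:826206-827522, minus strand) lies within it and had 50 and 43 counts with vehicle against 257 and 102 with CPI-455, a log2 fold change of 3.51 ± 0.29 (FDR 8.42e-06). The exons of these 2 genes share bases, and strand was not used in counting, so reads of the shared part were left out and reads on the opposite strand in the rest could not be told apart from the gene's own. LINC02593, 89343 bases from LINC00115, rose as described above, as did its neighbour SAMD11 (1.59 ± 0.20, FDR 0.000119). On chromosome 18, LINC00526 and LINC00667, which overlap on opposite strands, were both lower, with 22 and 20 counts falling to 0 and 0 for LINC00526 and 145 and 144 falling to 14 and 16 for LINC00667.

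Of the 9 members that hold a small RNA gene on their strand, 3 were called higher and none lower (median log2 fold change 0.82). Among all 203 tested members, 27.6% were called higher and 12.3% lower, and among all 17600 genes 21% and 21.3%. LINC00265, whose promoter window is shown above, contains a U6 pseudogene and rose from 127 and 137 counts to 339 and 136 (2.42 ± 0.23, edgeR FDR 2.06e-05). LINC00888, which holds snoRNA genes of the SNORA63 family, had 268 and 330 counts against 70 and 45 and was under 2-fold (-0.74 ± 0.25, FDR 0.0258). LINC00869 (0.51 ± 0.33, FDR 0.209), LINC01138 and LINC00623 (-0.14 ± 0.36, FDR 0.76) hold U1 variant genes on chromosome 1 and were not called. These 3 lie in a region known for near-identical copies, and fragments with several alignments were not counted. The changes therefore rest on the unique parts of these genes. Of 28 tested members with 1 exon block, 10 were called higher and 7 lower, and of 175 with 2 or more, 46 were called higher and 18 lower.

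Size and composition varied widely among members. Across the 203 tested members, Pearson's r of the log2 fold change was -0.04 with log2 exon length, 0.05 with exon GC content and 0.15 with the average log2 CPM. Genes share libraries and are not independent replicates, so these are descriptions. The median exon length was 2284 bases for members called higher, 3148 for those called lower and 2264 for those not called, and the median GC content was 51.4%, 46.9% and 49.4%.

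A nearest protein-coding gene that was itself tested was found for members in 156 pairs, and r between the 2 log2 fold changes was 0.11 (Spearman's rho 0.07). Among the neighbours of 43 members called higher, 8 were called higher, 10 lower and 25 not called. Among the neighbours of 18 members called lower, 3 were called higher, 4 lower and 11 not called. Among those of 95 members not called, 16 were called higher, 29 lower and 50 not called. Over all genes tested, 21% were called higher and 21.3% lower. The neighbours are all protein-coding, and over tested protein-coding genes with at least 40 counts 15.3% were called higher and 24.7% lower. Some of the largest risers had a strongly rising neighbour, chosen for mention after their values were seen. NR4A2, an orphan nuclear receptor gene 299819 bases from LINC01876, rose from 61 and 68 counts to 778 and 455 (4.88 ± 0.17, edgeR FDR 3.66e-07). ANKRD36C, an ankyrin repeat gene 20704 bases from LINC00342, rose from 510 and 534 counts to 2353 and 1728 (3.64 ± 0.15, FDR 5.83e-07). SAMD11, nearest to LINC02593 and LINC00115, and PMFBP1, nearest to LINC01572, were also called higher. In contrast, MAFA, 2128 bases from LINC02990, was called lower (-2.23 ± 0.35, FDR 0.000461). SOX3, PCBP3 and MAP1LC3B2, nearest to LINC00632, LINC01694 and LINC00173, were not called.

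**Figure D4:**
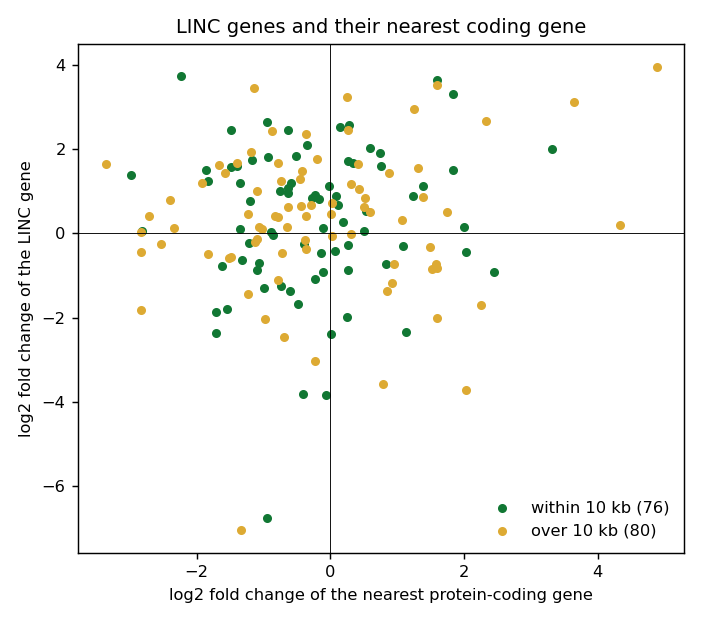
Log2 fold change of each LINC gene (vertical axis) against that of its nearest protein-coding gene (horizontal axis) in 156 pairs, green where they lie within 10 kb and yellow where they are farther apart. The points form no line in either group (r = 0.09 within 10 kb and 0.13 beyond).

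Other lncRNA genes with at least 40 counts had a larger share higher than the LINC members. Among 448 tested lncRNA genes named -AS1, 35.3% were called higher and 11.6% lower (median log2 fold change 0.67). Among 1304 other tested lncRNA genes, 37.9% were called higher and 10.4% lower, with a median of 0.74. Among 13603 protein-coding genes, 15.3% were called higher and 24.7% lower, with a median of -0.22. The members were thus placed between the coding genes and the other lncRNA genes, and the differences between the classes were not tested. The classes were not matched for level or length. The median average log2 CPM was 1.38 for the members, 1.47 for the -AS1 genes and 5.01 for the coding genes. Their median exon lengths were 2337, 2352 and 5094 bases. All lncRNA genes together took 1.55% to 1.71% of counts with vehicle and 7.32% to 8.79% with CPI-455, MALAT1 included.

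**Figure D5:**
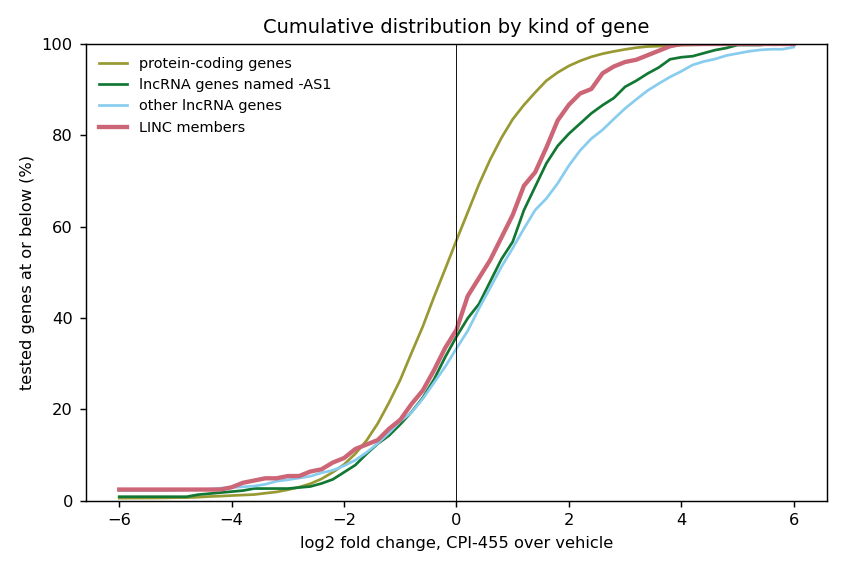
Percent of tested genes with at least 40 counts (vertical axis) at or below each log2 fold change of CPI-455 over vehicle (horizontal axis), for LINC members, other kinds of lncRNA genes and protein-coding genes. At a log2 fold change of 0 the curve of the LINC members is at 37.4%, that of the -AS1 genes at 35.9%, that of the other lncRNA genes at 33.4% and that of the protein-coding genes at 57.0%.

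LINC transcripts are known substrates of nuclear RNA decay, so a list of 28 genes of the exosome, its nuclear adaptors and related factors was counted beside them. In the list, 5 genes (17.9%) were called higher, 3 (10.7%) lower and 20 were not called, against 21% and 21.3% of all genes tested, so the share higher was near that of all genes. EXOSC10, the nuclear exonuclease of the exosome, rose from 1356 and 1201 counts to 2357 and 1022 (log2 fold change 1.98 ± 0.15, edgeR FDR 6.41e-06). EXOSC8 and EXOSC1, subunits of its core, PABPN1, the nuclear poly(A)-binding protein, and SRRT, which links the cap to RNA fate, were also called higher. ZC3H4, which restricts transcription of non-coding units, fell from 185 ± 17.5 to 24.4 ± 6.48 CPM (-2.90 ± 0.18, FDR 1.92e-06), and ZC3H3 and EXOSC4 were called lower. The part of these genes in the changes of LINC transcripts was not tested.

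At the minimum of 40 summed counts, the nearest members inside were LINC02816 with 40 counts (23, 17, 0 and 0) and LINC00685 with 41 (4, 6, 15 and 16). LINC02816 was called lower, a call lost without vehicle replicate 2 (FDR 0.118 by edgeR). LINC00685 was called higher at 3.30 ± 0.75, a call that was not kept with a length and GC trend removed (1.74) nor without vehicle replicate 1 (3.06) or 2 (3.58). Just outside were LINC00324 with 39 counts (26, 13, 0 and 0) and LINC00853 with 39 (9, 23, 7 and 0). The 3 members that were not tested were LINC00242 with 34 and 12 counts with vehicle against 0 and 0 with CPI-455, LINC01176 with 10 and 11 against 29 and 3, and LINC02883 with 11 and 12 against 0 and 19. LINC00242 was at least 4.97-fold lower against the floor of 3 counts.

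The remaining called members were read after their values were seen. LINC00938, on chromosome 12 and 1890 bases from the chromatin remodelling gene ARID2, had 202 and 140 counts with vehicle against 365 and 235 with CPI-455 and rose from 7.97 ± 2.22 to 43.7 ± 3.92 CPM (log2 fold change 2.45 ± 0.23, edgeR FDR 1.6e-05). LINC02604, on chromosome 7, had 317 and 329 counts against 480 and 210 and rose from 15.0 ± 0.0398 to 47.7 ± 8.70 CPM (1.68 ± 0.18, FDR 4e-05). LINC00174 had 352 and 355 counts against 362 and 139 and was the called riser closest to 2-fold, at 1.07 ± 0.21 (FDR 0.00172). It lies in the body of TPST1, a tyrosine sulfation enzyme gene, on the opposite strand. LINC01004 (2.01 ± 0.61, FDR 0.0166) lies 1135 bases from KMT2E. LINC01232, on chromosome 13, had 255 and 283 counts against 16 and 17 and fell from 12.5 ± 0.625 to 2.58 ± 1.11 CPM (-2.35 ± 0.35, FDR 0.000309). LINC01535, past the end of the zinc finger gene ZNF383, had 209 and 199 counts against 21 and 19 and fell from 9.48 ± 0.552 to 3.06 ± 0.992 CPM (-1.68 ± 0.34, FDR 0.0021). LINC02035 was the called faller closest to 2-fold, with 291 and 278 counts against 32 and 49 (-1.08 ± 0.39, FDR 0.0352). In LINC01232 and LINC01535 the CPI-455 replicates had nearly the same number of counts at unequal depth.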

How the data were processed

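Total RNA of 4 LNCaP cultures was sequenced, and groups were taken from the sample labels. According to the methods and the file headers, the authors trimmed reads (Trim Galore), aligned them to GRCh38 (STAR) and counted fragments on exons of Ensembl release 83 genes with featureCounts v1.5.0-p1. The deposited values are raw counts per gene and library, without normalization. Counting ignored strand and skipped multi-mapped fragments and those touching more than 1 gene. RNA selection and strandedness of the libraries are not given in the sources used here.

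Symbols matched 56558 of 60675 genes. Positions are those of the files, gene types come from GENCODE release 44 and promoter sequences from RefSeq (GRCh38.p14). Counts were fitted with edgeR 4.0.16 in R 4.3.3 (TMM, filterByExpr with a minimum of 10 counts, glmQLFit and glmQLFTest without covariates), and FDR was adjusted by Benjamini-Hochberg over all 17600 genes tested. A call needed an FDR under 0.05 and at least a 2-fold change. Log2 fold changes are CPI-455 over vehicle, and SE was derived from the F statistic. CPM are TMM-normalized. Same-numbered replicates had correlated deviations of only r = 0.04 and were not paired.

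Members and lists were chosen with earlier results of these data known. Named genes were the 10 called members with the largest change in each direction (average log2 CPM of at least 0), the 5 highest per kilobase, members of the written lists, the 2 genes on each side of the 40-count minimum, the 5 highest head-to-head members and the 5 highest hosts of small RNA genes. Other genes were named after their values were seen. Some genes are not reported here. Counting bounds use a floor of 3 counts over a group, which was 0.137 to 0.593 CPM in single libraries, and exact 95% intervals. Both reflect counting error alone, because no molecular identifiers were counted. Alternatives were other normalizations, filters, thresholds and member minimums, DESeq2 1.42.0, a replicate block, a length and GC trend (mgcv 1.9.3), thinning, and leaving out each library.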

Additional observations from a re-analysis of the deposited data

How the results depend on the processing

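The number of members called varied with the libraries, the filter and the threshold. Leaving out each library gave 32 to 66 members higher and 11 to 37 lower, with medians of 0.28 to 0.53. The lowest counts came without vehicle replicate 1 (32 higher and 11 lower) and without vehicle replicate 2 (34 and 11), where the lone sample is assumed to vary like the other group. At least 10 counts in every library left 115 members, of which 61 were called higher and 7 lower, with a median of 1.11. That filter removes genes that fell to few counts. glmTreat called 31 of 203 members higher and 17 lower, against 2455 higher and 2350 lower of 17600 genes. The 135 tested members that neither share exon bases nor lie wholly inside another gene gave 37 higher and 18 lower, with a median of 0.51. The 99 tested members that overlap no other gene body gave 29 higher and 16 lower, with a median of 0.67. The median was 0.24 with library totals only, where the median of all genes shifted from -0.04 to -0.23. It was 0.29 with no filter and 0.20 with the length and GC trend removed. With thinned libraries it was 0.73, over the 132 members still tested. The fit with the length and GC trend removed called 47 of 203 members higher and 25 lower. Over all 17600 genes that fit called 3634 higher and 3195 lower. With no minimum fold, 63 of 203 members were higher and 28 lower, against 5243 and 5767 of 17600 genes.

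The groups share only replicate numbers. The replicate block gave 48 of 203 members higher and 26 lower, with a median of 0.43. Over all 17600 genes it gave 3422 higher and 3745 lower. Together with the length and GC trend, the block gave 40 members higher and 26 lower, with a median of 0.17. Over all 17600 genes that fit gave 3373 higher and 3174 lower, so the share of members higher was near that of all genes. In the 13 alternative fits, 25 of the 56 calls higher and 4 of the 25 calls lower (LINC00641, LINC01128, LINC01232 and LINC01535) were kept in every one. The fit requiring at least 10 counts in every library did not test genes that fell below this. It kept 50 of the 56 calls higher and 7 of the 25 lower. The number of falls kept in every fit therefore also reflects that filter.

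Among the 42 named members, for which single values were recomputed, signs reversed for 3 that were not called. LINC00623 ranged from -0.47 to 0.026 when a library was left out, the highest without CPI-455 replicate 2, and was 0.19 with thinned libraries. LINC00649 ranged from -0.35 to 0.087, the highest without CPI-455 replicate 1, and was 0.17 with the length and GC trend removed, with or without the replicate block, and 0.080 with thinned libraries. LINC01138 ranged from -0.19 without CPI-455 replicate 1 to 1.27 without CPI-455 replicate 2. The cause was not tested. At the low end, 10 and 15 members had no count in the less deeply sequenced CPI-455 libraries.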
